A study of Mus musculus with 16 samples.

Results

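This comparison set 8 liver libraries of mice fed a diet with ethanol against 8 of mice fed a control diet, pooled over genotypes. The members were chosen by the diet label alone, and they are all 16 libraries of the series. Each diet group held 4 libraries of wild-type mice (WT) and 4 of mice with a liver-specific knockout of Zfp36l1 (LKO), so the deletion was carried by control and ethanol mice alike. Total RNA of liver was sequenced, 1 library per label. The labels give no strain, sex, age, diet composition, feeding time or Cre driver, and do not say whether each library is a separate animal, so the p-values measure the spread between these libraries. Expression is given as FPKM, the fragments counted on a gene, scaled to its length and to the fragments counted in the library.

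Ethanol is oxidised in hepatocytes to acetaldehyde by alcohol dehydrogenases and by the cytochrome CYP2E1, and acetaldehyde is oxidised further to acetate. Reactive by-products call on NRF2, a transcription factor that turns on antioxidant and glutathione-conjugating enzymes, and foreign compounds also act through CAR, a nuclear receptor that turns on drug-metabolising cytochromes. Ethanol is known for fat accumulation in liver, a process that draws on fatty acid synthesis (driven by SREBP-1c), lipid storage and fatty acid oxidation (driven by PPARalpha).

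Zfp36l1, which encodes a protein that binds AU-rich elements and shortens the life of messenger RNA, was at 9.30 to 25.5 FPKM in the 8 WT libraries and at 0.572 to 1.76 FPKM in the 8 LKO libraries, so every library matched its genotype label. Between diets, Zfp36l1 did not pass the test (its log2 fold change was 0.08 ± 0.22 (SE; adjusted p = 0.883) with 16 libraries and 0.11 ± 0.22 (adjusted p = 0.779) with 15). Reads per library, worked out from the FPKM steps, ran from 9890475 in WT ethanol library 2 to 24768569, and the other 15 libraries held at least 19069903. WT ethanol library 2 stood apart. Across genes its Spearman correlation with the other libraries was 0.664 to 0.721, against 0.858 to 0.985 among those libraries, and its mitochondrial transcripts took 22.53% of reads against 3.64% to 6.97%. Counts and leading genes are therefore given with 16 libraries and with the 15 that remain without it. Defining hepatocyte transcripts were abundant in each library, with Alb, the gene of serum albumin, at 23000 FPKM or more. In WT ethanol library 2, 3 of 7 hepatocyte markers had their lowest value of all 16 libraries, among them the transcription factor gene Hnf4a at 22.2 FPKM (94.0 to 204 FPKM in the control libraries), and 2 had their highest.

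Ethanol changed 883 of the 11298 genes tested (7.82%; limma, adjusted p under 0.05, where adjusted p is the Benjamini-Hochberg value over all genes tested). Of these, 515 genes rose (4.56% of those tested) and 368 fell (3.26%). Without WT ethanol library 2, 2284 genes were called (20.2%), of which 1634 rose (14.5%) and 650 fell (5.75%), and all 883 were among them. A change of at least 2-fold was reached by 383 called genes with 16 libraries, 184 up and 199 down, and by 444 with 15, 270 up and 174 down. The 8 ethanol and 8 control libraries did not overlap at all for 226 genes (2%), 134 of them higher (1.19%) and 92 lower (0.814%). With 15 libraries that number was 408 (3.61%), 304 higher (2.69%) and 104 lower (0.921%). The median log2 fold change over all genes tested was 0.02 with 16 libraries and 0.11 with 15, and the excess of rises over falls depended on scaling. Quantile normalization gave 710 higher and 704 lower genes, and median-of-ratios scaling gave 554 higher and 727 lower. With 15 libraries quantile normalization gave 1134 higher and 1075 lower.

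Genes that rose were mostly low on the control diet and genes that fell were higher there, as the plot of level against change shows. The median control mean was 2.48 FPKM over the 515 genes that rose and 16.6 FPKM over the 368 that fell, against 5.30 FPKM over all genes tested. A gene low on the control diet could enter the test through its ethanol libraries (the filter asks for 1 FPKM or more in at least 4 libraries), which favours rises among low genes. Control means under 1 FPKM were found for 134 genes that rose (26.0%) and 3 that fell (0.8%), against 7.7% of all genes tested. A control mean of 100 FPKM or more was found for 17 genes that rose (3.3%) and 70 that fell (19.0%), against 5.8% of all genes tested. Together, the 368 genes that fell took 6.81% to 9.08% of reads in the control libraries and 2.80% to 5.21% in the 7 ethanol libraries other than WT ethanol library 2. The 515 that rose went from 1.97% to 2.39% of reads on the control diet to 3.59% to 5.78% in those 7 libraries. These shares are computed on the genes that the test picked and describe their weight in the library.

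**Figure D1:**
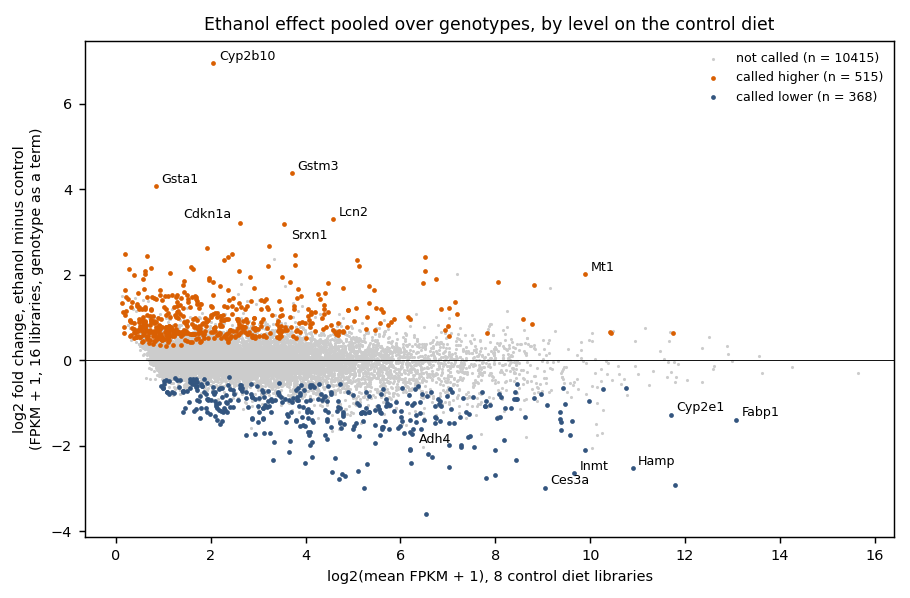
Each point is 1 of the 11298 genes tested, with log2 of the mean FPKM + 1 in the 8 control libraries on the x axis and the pooled log2 fold change (ethanol minus control, 16 libraries) on the y axis. The 515 genes called higher (orange) lie mostly to the left, while the 368 called lower (blue) reach the highest levels, among them Cyp2e1 and Fabp1; Cyp2b10 has the largest change, 6.95.

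The 3 largest rises among called genes without overlap between diets were of enzymes that modify and clear foreign compounds, Cyp2b10, Gstm3 and Gsta1. Cyp2b10 ranged from 0.739 to 5.75 FPKM (median 2.80) in the control libraries and from 204 to 991 FPKM (median 403) in the ethanol libraries. Cyp2b10 encodes the cytochrome P450 that serves as the standard readout of CAR, and its 8 ethanol libraries all lay above its 8 control libraries. Its log2 fold change was 6.95 ± 0.29 (SE; adjusted p = 6.57e-11) with 16 libraries and 6.95 ± 0.30 (adjusted p = 6.32e-10) with 15. Control libraries held Gstm3 at 5.76 to 23 FPKM (median 9.77) and ethanol libraries at 55.0 to 468 FPKM (median 335), again without overlap. Gstm3 encodes a mu-class glutathione S-transferase, an enzyme that joins glutathione to reactive compounds, and its log2 fold change was 4.38 ± 0.43 (SE; adjusted p = 2.55e-05) with 16 libraries and 4.59 ± 0.41 (adjusted p = 1.57e-05) with 15. The level of Gsta1 was 0.219 to 1.96 FPKM (median 0.698) on the control diet and 4.07 to 218 FPKM (median 33.0) on ethanol. This alpha-class transferase separated the diets in every library although its ethanol values spread widely, and its log2 fold change was 4.07 ± 0.72 (SE; adjusted p = 0.00221) with 16 libraries and 4.44 ± 0.70 (adjusted p = 0.000635) with 15.

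The promoters of 3 members are shown because they set the gene with the largest rise beside a transporter that rose and a regulator that fell. Each run starts 250 bases before the start annotated by RefSeq (GRCm38.p6) and stops before the first base that RefSeq or GENCODE places in the gene, which left 212, 250 and 201 bases; it is written 5′ to 3′ on the gene's strand, with capitals on matches to the antioxidant response element core TGACNNNGC or to the E-box CACGTG, searched on both strands. On GRCm38 (GENCODE M21) the annotation places Cyp2b10 at chr7:25897620-25926624, Gstm3 at chr3:107963696-107969283, Gsta1 at chr9:78230656-78242684, Abcc4 at chr14:118482692-118706219 and Insig1 at chr5:28071363-28078662. Cyp2b10 (chr7:25897408-25897619, plus strand) holds neither. Abcc4 (chr14:118706220-118706469, minus strand), the gene of an efflux pump for conjugated compounds, holds an E-box and a core on the opposite strand before the first of its 2 starts in the table. Insig1 (chr5:28071162-28071362, plus strand), whose protein retains SREBP in the endoplasmic reticulum, holds an E-box.
Cyp2b10: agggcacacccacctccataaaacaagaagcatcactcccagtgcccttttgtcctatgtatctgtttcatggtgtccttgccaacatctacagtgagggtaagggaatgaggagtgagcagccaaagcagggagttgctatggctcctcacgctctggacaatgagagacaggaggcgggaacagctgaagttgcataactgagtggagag
Abcc4: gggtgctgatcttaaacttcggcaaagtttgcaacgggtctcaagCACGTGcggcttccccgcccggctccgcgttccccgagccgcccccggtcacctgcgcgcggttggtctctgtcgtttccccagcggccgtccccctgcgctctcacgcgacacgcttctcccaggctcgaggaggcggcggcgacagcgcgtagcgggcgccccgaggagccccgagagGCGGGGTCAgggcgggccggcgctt
Insig1: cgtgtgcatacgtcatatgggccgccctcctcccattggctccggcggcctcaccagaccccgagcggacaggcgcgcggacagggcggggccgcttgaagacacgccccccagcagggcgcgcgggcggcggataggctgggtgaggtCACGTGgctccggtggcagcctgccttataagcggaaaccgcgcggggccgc
In windows of 300 bases (250 before to 50 after the start), the core was present for 18.1% of the 392 genes called higher with a promoter in the table and for 14% of 271 called lower, against 17.0% of 8660 genes tested and 14% of all 27025 genes there. The E-box was present for 11% of genes called higher, 9.2% called lower, 12.1% of genes tested and 8.1% of all. In that window Srxn1, which rose, holds the core as GCTAGGTCA after its start, and Me1, which fell, holds it as TGACTCAGC across its start. These shares are descriptions of the letters in the window.

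Among glutathione S-transferases, 10 of 22 tested genes rose and 0 fell with 16 libraries, and 12 rose and 1 fell with 15. The median log2 fold change of the list was 0.74 with 16 libraries, against 0.02 over all genes, and all 10 kept their call in each of the 13 other settings and 16 fits without 1 library. Gsta2 rose by 2.46 and 2.47 on the log2 scale with 16 and with 15 libraries, and the theta-class Gstt3 by 2.23 and 2.15. Gsta2 ranged from 4.52 to 20.8 FPKM (median 12.6) in the control libraries and from 36.8 to 143 FPKM (median 61.1) in the ethanol libraries, and its diets did not overlap. The 2 pi-class genes Gstp1 and Gstp2 rose by 1.83 and 1.95 and by 2.03 and 2.21 on the log2 scale with 16 and 15 libraries, and Gstm1, the most abundant mu-class gene of the list, by 1.75 and 1.82. Near-identical copies within these classes can share reads, so the split between them is uncertain.

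NRF2 target genes were called higher for 9 of 24 and lower for 1, with a median log2 fold change of 0.63 with 16 libraries and 0.55 with 15. Of those called, 5 kept the call under every alternative. Srxn1 ranged from 7.78 to 12.9 FPKM (median 11) in the control libraries and from 33.5 to 618 FPKM (median 93.9) in the ethanol libraries. Srxn1 encodes sulfiredoxin, which repairs over-oxidised peroxiredoxins, and its ethanol libraries all lay above its control libraries; its log2 fold change was 3.18 ± 0.46 (SE; adjusted p = 0.000612) with 16 libraries and 3.41 ± 0.44 (adjusted p = 0.000166) with 15. Control libraries held Hmox1 at 8.27 to 14.1 FPKM (median 10.3) and ethanol libraries at 17.8 to 96.3 FPKM (median 37.6). Hmox1 encodes the heme-degrading enzyme heme oxygenase 1, did not overlap between diets and rose by 1.95 and 2.0 on the log2 scale with 16 and 15 libraries. Nqo1, a quinone reductase, rose by 1.34 and 1.54, Cbr3, a carbonyl reductase, by 2.43 and 2.45 and the pump gene Abcc4 by 1.48 and 1.67 on the same scale with 16 and 15 libraries. The glutathione synthesis gene Gclm fell by 0.47 on the log2 scale with 15 libraries (adjusted p = 0.0217) and did not pass with 16 (adjusted p = 0.123). Me1, which makes NADPH and belongs to this list and to that of fatty acid synthesis, fell (log2 fold changes -1.32 and -1.06). Fth1 and Ftl1, the ferritin chains, rose by 0.67 and 0.65, but lost their calls in 7 of the 16 and 9 of the 16 fits that left out 1 library, and in 3 of the 13 and 4 of the 13 other settings.

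Targets of CAR and its relative PXR were called about as often as all genes tested with 16 libraries, for 8.0% against 7.82%. With 16 libraries 2 of 25 rose, Cyp2b10 and Cyp2c55, and with 15 libraries 8 rose and 1 fell (36.0% called against 20.2% of all genes tested). The median was 0.01 with 16 libraries, changed sign under equal-sum, median-of-ratios and voom scaling, and was 0.32 with 15. Cyp2c55, at most 1.96 FPKM in any library, lost its call in 11 of the 16 fits without 1 library and 3 of the 13 other settings. Cyp3a11, the main PXR target, had a log2 fold change of 0.37 with 16 libraries (adjusted p = 0.718) and 0.81 with 15 (adjusted p = 0.0454), far from the change of Cyp2b10.

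**Figure D2:**
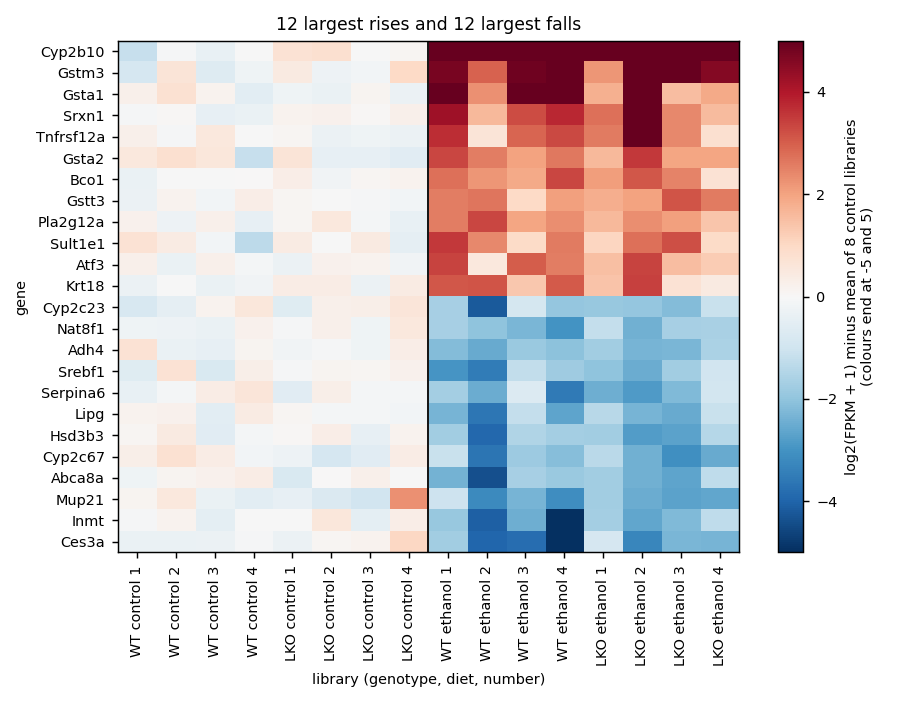
Rows are the 12 largest rises and 12 largest falls among genes called with 16 and 15 libraries whose diets do not overlap; columns are the 16 libraries, control diet left of the line, and colour gives log2(FPKM + 1) minus the mean of the 8 control libraries. Among the ethanol libraries, 2 of the 12 rises, Atf3 and Tnfrsf12a, are palest in WT ethanol library 2, and 8 of the 12 falls, Abca8a and Lipg among them, are darkest there.

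The other large rises were mixed in function. Tnfrsf12a, the receptor of the cytokine TWEAK, rose by 2.68 and 3.0 on the log2 scale with 16 and 15 libraries, and Krt18, a keratin of the hepatocyte skeleton, by 2.09 and 1.95. Krt18 ranged from 70.5 to 116 FPKM (median 82.0) in the control libraries and from 121 to 954 FPKM (median 490.2) in the ethanol libraries. Pla2g12a, a secreted phospholipase, rose by 2.20 and 2.05, and Bco1, which cleaves beta-carotene into retinal, by 2.34 and 2.36 on the same scale. Sult1e1, which sulfates and inactivates estrogen, rose by 2.19 and 2.16. None of these 5 genes overlapped between diets.

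Among called genes without overlap between diets, the largest falls were mainly of enzymes and carriers. Ces3a ranged from 394 to 1032 FPKM (median 439) in the control libraries and from 9.26 to 275 FPKM (median 74.5) in the ethanol libraries. Ces3a encodes a carboxylesterase that hydrolyses esters and lipids, its diets did not overlap, and its log2 fold change was -2.99 ± 0.44 (SE; adjusted p = 0.000645) with 16 libraries and -2.91 ± 0.46 (adjusted p = 0.000635) with 15. Control libraries held Inmt at 559 to 1165 FPKM (median 782) and ethanol libraries at 23.8 to 328 FPKM (median 157), also without overlap. Inmt encodes an N-methyltransferase that adds methyl groups to indoleamines, and its log2 fold change was -2.65 ± 0.39 (SE; adjusted p = 0.000612) with 16 libraries and -2.49 ± 0.38 (adjusted p = 0.000508) with 15. Serpina6, the plasma carrier of glucocorticoids, fell by 2.10 and 2.03 on the log2 scale with 16 and 15 libraries. Falls of similar size were seen for Lipg, an endothelial-type lipase (log2 fold changes -2.14 and -1.93), Abca8a, a lipid transporter (-2.29 and -1.98), and Hsd3b3, a steroid dehydrogenase (-2.18 and -1.92). Cyp2c67 (-2.25 and -2.01) and Cyp2c23 (-1.97 and -1.65), cytochromes of the Cyp2c family, and Nat8f1 (-1.98 and -2.01), an acetyltransferase, fell without overlap as well. Of the 12 largest falls 8 had their lowest value in WT ethanol library 2, among them Abca8a and Cyp2c23 at 0.144 and 5.61 FPKM.

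Several genes that oxidise ethanol and acetaldehyde fell. With 16 libraries 5 of 13 fell and none rose, with a median log2 fold change of -0.68, and with 15 libraries 5 fell, 1 rose and the median was -0.30. Adh4 ranged from 52.2 to 115 FPKM (median 64.9) in the control libraries and from 11.5 to 23 FPKM (median 15.6) in the ethanol libraries, without overlap. Adh4 encodes a class II alcohol dehydrogenase, and its log2 fold change was -2.06 ± 0.20 (SE; adjusted p = 2.55e-05) with 16 libraries and -2.0 ± 0.18 (adjusted p = 1.57e-05) with 15. Control libraries held Cyp2e1 at 2142 to 4499 FPKM (median 3336) and ethanol libraries at 803 to 3009.5 FPKM (median 1166). This ethanol-oxidising cytochrome, also counted among pericentral genes, had 2 LKO ethanol libraries inside the control range, and its log2 fold change was -1.28 ± 0.27 (SE; adjusted p = 0.00721) with 16 libraries and -1.30 ± 0.27 (adjusted p = 0.00382) with 15. Adh5 (log2 fold changes -0.85 and -0.65) lost its call in 11 of the 16 fits without 1 library and 2 of the 13 other settings, and catalase, Cat, in 9 of the 16 and 2 of the 13. The mitochondrial aldehyde dehydrogenase gene Aldh2 had log2 fold changes of -0.54 and -0.30 (adjusted p = 0.420 and 0.523), and the main class I gene Adh1 -0.20 and -0.16 (adjusted p = 0.562 and 0.489).

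Carboxylesterases fell for 7 of 12 with 16 libraries and with 15, and 1 rose with 15. Ces3b fell by 2.51 and 2.54 on the log2 scale with 16 and 15 libraries, and Ces1d, which hydrolyses stored triglyceride, by 1.62 and 1.54. Of the 7, Ces3a, Ces3b and Ces1d kept the call under every alternative. Sulfotransferases split. Sult1e1 and Sult1a1 rose and 5 of 15 fell with 16 libraries, among them Sult2a8 (log2 fold changes -2.68 and -2.40), which sulfates bile acids, and Sult1b1 (-1.26 and -1.17). The level of Sult3a1 was 1.56 to 142 FPKM (median 126) on the control diet and 0 to 50.2 FPKM (median 5.94) on ethanol. Sult3a1 had a log2 fold change of -3.59 with 16 libraries and -3.30 with 15, but 3 control libraries (WT control 3 and 4 and LKO control 4) lay inside the ethanol range. The call was lost in 3 of the 16 fits without 1 library and in 2 of the 13 other settings (no filter, and voom). UDP-glucuronosyltransferases fell for 4 of 15 with 16 libraries, and with 15 libraries 6 fell and 3 rose.

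Stress-response genes were among those that rose. The integrated stress response, through which cells slow protein synthesis and switch on ATF4 and its targets, had 7 of 20 genes higher and none lower with 16 libraries, and 11 higher with 15, with list medians of 0.76 and 0.92 on the log2 scale. Atf3 ranged from 0.317 to 0.972 FPKM (median 0.691) in the control libraries and from 1.38 to 16.3 FPKM (median 6.31) in the ethanol libraries, without overlap. Atf3 encodes a stress-induced transcription factor, also listed among immediate early genes, and its log2 fold change was 2.15 ± 0.35 (SE; adjusted p = 0.00141) with 16 libraries and 2.42 ± 0.29 (adjusted p = 8.75e-05) with 15. Its lowest ethanol value, 1.38 FPKM, was in WT ethanol library 2. Ddit3, which encodes the death-promoting factor CHOP, rose by 1.21 and 1.08 on the log2 scale without overlap, Nupr1 by 1.43 and 1.36 and Gdf15, a secreted stress hormone, by 2.42 and 2.65. Psat1, of serine synthesis, rose by 2.02 and 2.05.

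Fgf21, the stress and fasting hormone that the study's title names, was variable within each diet. Control libraries held Fgf21 at 3.95 to 37.2 FPKM (median 6.76) and ethanol libraries at 3.15 to 113 FPKM (median 52.1), so the diets overlapped. Its log2 fold change was 1.74 ± 0.58 (SE; adjusted p = 0.0770) with 16 libraries and 2.15 ± 0.50 (adjusted p = 0.00707) with 15. In an exact two-sided permutation test within genotype it was higher by 1.74 on the log2 scale with p = 0.0278 over 4900 arrangements with 16 libraries (0.0556 after adjustment for 2 genes), and by 2.13 with p = 0.00571 over 2450 arrangements with 15 (0.0114 adjusted). Fgf21 was at 3.15 FPKM in WT ethanol library 2, below every control library. It also passed without WT control library 3 (adjusted p = 0.0286) or LKO ethanol library 4 (adjusted p = 0.0343), and with 16 libraries under quantile normalization (adjusted p = 0.0433) and array weights (adjusted p = 0.00255).

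Among genes of p53 signalling and growth arrest, 3 of 15 rose with 16 libraries and 6 with 15. Cdkn1a ranged from 0.806 to 24.5 FPKM (median 2.14) in the control libraries and from 6.72 to 76.4 FPKM (median 46.3) in the ethanol libraries. Cdkn1a encodes the cell cycle inhibitor p21, its one high control value was in WT control library 3, and its log2 fold change was 3.21 ± 0.43 (SE; adjusted p = 0.000414) with 16 libraries and 3.27 ± 0.46 (adjusted p = 0.000275) with 15. Immediate early genes, which respond within minutes to growth and stress signals, rose for 9 of 18 with 16 libraries. With 15 libraries 15 rose and 1, Zfp36, fell (-0.81 on the log2 scale, adjusted p = 0.0419). Jund and Klf6, transcription factors of this list, rose by 1.67 and 1.55 and by 1.48 and 1.65 on the log2 scale without overlap, and Egr1 by 1.83 and 2.08. Of 21 genes for endoplasmic reticulum chaperones and related stress proteins, 0 were called higher and 1 lower with 16 libraries. The gene that fell, Herpud1, is not itself a chaperone gene (log2 fold changes -1.04 and -0.83). Its call was lost in 7 of the 16 fits without 1 library and 2 of the 13 other settings. With 15 libraries 2 rose, Hspa5 and Dnajb9 (log2 fold changes 0.65 and 0.52), Herpud1 fell, and the list median went from -0.02 to 0.25. In all, 4.8% and 14.3% of the list were called with 16 and 15 libraries, against 7.82% and 20.2% of all genes tested. Heat shock genes were called higher for 2 of 17 with 16 libraries and 5 with 15 (11.8% and 29.4%).

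**Figure D3:**
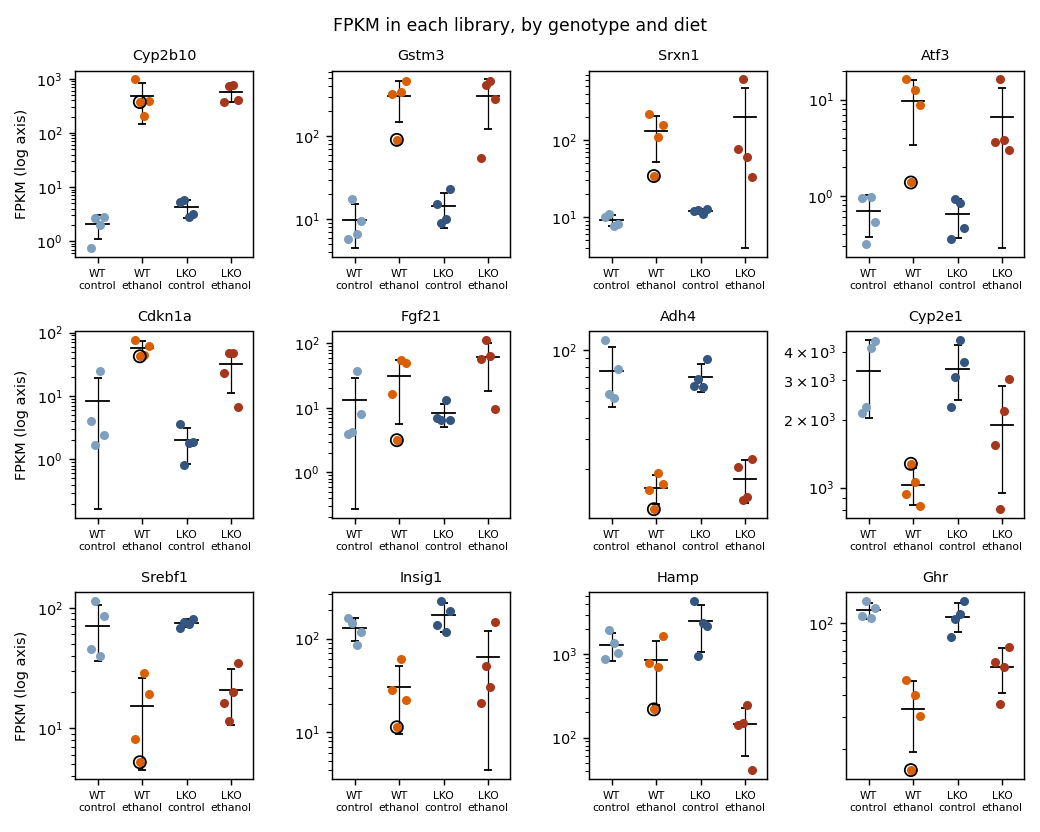
FPKM of 12 genes in each library on log axes, by genotype and diet, with the group mean (line) and SD over 4 libraries (bars, cut near 0 where the SD exceeds the mean); the ringed point is WT ethanol library 2. Cyp2b10, Gstm3, Srxn1, Atf3, Adh4, Srebf1 and Ghr separate the diets in all libraries, whereas Cdkn1a, Fgf21, Cyp2e1, Insig1 and Hamp overlap.

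Several fatty acid synthesis genes fell. With 16 libraries 5 of 17 were lower and none higher, and with 15 libraries 11 were lower and 1 higher, with list medians of -1.14 and -1.06 on the log2 scale. Srebf1 ranged from 40.0 to 114 FPKM (median 74.4) in the control libraries and from 5.22 to 35.1 FPKM (median 17.8) in the ethanol libraries, without overlap. Srebf1 encodes SREBP-1, the factor that drives lipogenic genes, and its log2 fold change was -2.09 ± 0.32 (SE; adjusted p = 0.000807) with 16 libraries and -1.90 ± 0.28 (adjusted p = 0.000405) with 15. Of those called with 16 libraries, 1, Srebf1, kept the call under every alternative. Acly, which makes cytosolic acetyl-CoA (log2 fold changes -1.79 and -1.66), and Me1 lost theirs without the filter on low values. Fatty acid synthase, Fasn, had log2 fold changes of -1.35 and -1.45 and passed with 15 libraries only (adjusted p = 0.0620 and 0.0312), as did the desaturase Scd1 (-1.71 and -1.38; adjusted p = 0.0517 and 0.0450).

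Cholesterol synthesis and LDL uptake genes moved the same way, with 8 of 23 lower and none higher with 16 libraries, and 11 lower with 15. The list medians were -0.94 and -0.91 on the log2 scale. Control libraries held Insig1 at 86.5 to 253 FPKM (median 144) and ethanol libraries at 11.3 to 149 FPKM (median 29.4). LKO ethanol library 4 lay inside the control range of Insig1 and the other 7 ethanol libraries below it, and its log2 fold change was -2.03 ± 0.37 (SE; adjusted p = 0.00256) with 16 libraries and -1.84 ± 0.34 (adjusted p = 0.00178) with 15. Nsdhl, a sterol dehydrogenase, fell by 1.49 and 1.31 on the log2 scale with 16 and 15 libraries.

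Lipid storage genes went up in part. Of 28 genes for triglyceride synthesis and lipid droplets, 5 rose and 2 fell with 16 libraries, and 9 rose and 2 fell with 15. Cidec ranged from 2.19 to 4.30 FPKM (median 2.45) in the control libraries and from 2.77 to 95.1 FPKM (median 22.5) in the ethanol libraries. Cidec encodes a droplet protein that promotes large droplets, and it rose by 2.63 and 2.87 on the log2 scale with 16 and 15 libraries. Vldlr, a receptor that takes up lipoprotein, rose by 1.03 and 1.17 and Fabp4, a fatty acid carrier of fat cells and macrophages, by 1.83 and 1.98, the latter without overlap. The level of Fabp1 was 4961 to 13714 FPKM (median 7696) on the control diet and 1557 to 7004 FPKM (median 3243) on ethanol. Fabp1, the abundant hepatocyte fatty acid carrier, fell by 1.39 and 1.43 on the log2 scale. Plin2, the coat protein of hepatocyte droplets, passed with 15 libraries only (log2 fold changes 0.80 and 1.06; adjusted p = 0.215 and 0.0217).

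Genes of fatty acid oxidation and PPARalpha were mixed, with 2 of 31 higher and 3 lower with 16 libraries, and 3 higher and 6 lower with 15. In all, 16.1% and 29.0% were called, against 7.82% and 20.2% of all genes tested. Acot2, a mitochondrial acyl-CoA thioesterase, rose by 1.70 and 1.95 on the log2 scale. Ppara itself fell (log2 fold changes -1.22 and -0.99), a call lost in 4 of the 16 fits without 1 library and 2 of the 13 other settings, and Creb3l3 rose (0.56 and 0.57), lost in 4 of the 16 and 2 of the 13. The carnitine transferase gene Cpt1a had log2 fold changes of -0.84 and -0.51 (adjusted p = 0.243 and 0.256). Among 15 apolipoproteins none was called with 16 libraries. With 15 libraries 1 rose, Apoa4 (log2 fold changes 2.01 and 2.49, adjusted p = 0.0506 and 0.00211), and 2 fell (20% called against 20.2% of all genes tested).

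Bile acid genes were lower for 4 of 25 and higher for 1 with 16 libraries, and lower for 8 and higher for 3 with 15. Cyp7a1 ranged from 51.9 to 144 FPKM (median 66.8) in the control libraries and from 2.98 to 107 FPKM (median 11.9) in the ethanol libraries. Cyp7a1, the rate-limiting enzyme of bile acid synthesis, had 1 ethanol library inside the control range, and its log2 fold change was -2.40 ± 0.49 (SE; adjusted p = 0.00611) with 16 libraries and -2.21 ± 0.49 (adjusted p = 0.00564) with 15. The member that rose was Abcc4. The uptake carrier gene Slco1a1, also a male-biased gene, fell by 2.98 and 3.0 on the log2 scale.

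Genes that depend on the male pattern of growth hormone fell for 7 of 17 with 16 libraries and rose for 1, Gstp1. The list medians were -1.04 and -1.04 on the log2 scale with 16 and 15 libraries, and 7 of the 8 calls held under every alternative. Control libraries held Slco1a1 at 2.01 to 131 FPKM (median 21.8) and ethanol libraries at 0.801 to 3.13 FPKM (median 1.67). Mup21, a major urinary protein, fell by 2.40 and 2.28 on the log2 scale without overlap, Nudt7, a peroxisomal hydrolase, by 1.62 and 1.62 and Elovl3, a fatty acid elongase, by 1.36 and 1.34. Female-biased genes fell too, for 4 of 19 with 16 libraries and with 15, with 1 higher, Cyp17a1, a steroid hydroxylase that rose by 1.19 and 1.31. In each fit 26.3% of them were called, against 7.82% and 20.2% of all genes tested. A1bg, a female-biased plasma protein, fell by 2.78 and 2.48. Ghr ranged from 83.7 to 132 FPKM (median 111) in the control libraries and from 15.3 to 73.8 FPKM (median 44.1) in the ethanol libraries, without overlap. Ghr encodes the growth hormone receptor, and its log2 fold change was -1.42 ± 0.25 (SE; adjusted p = 0.00217) with 16 libraries and -1.23 ± 0.17 (adjusted p = 0.000296) with 15. Igf1, its main hormone target, had log2 fold changes of -0.30 and -0.30 (adjusted p = 0.486 and 0.341). Igfbp1, which binds that hormone, rose by 1.81 and 2.02, a call lost in 11 of the 16 fits without 1 library and 3 of the 13 other settings.

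Hamp ranged from 873 to 4389 FPKM (median 1667) in the control libraries and from 40.7 to 1672 FPKM (median 232) in the ethanol libraries. Hamp encodes hepcidin, the hormone that limits iron release into blood, and its log2 fold change was -2.53 ± 0.57 (SE; adjusted p = 0.0109) with 16 libraries and -2.40 ± 0.60 (adjusted p = 0.0102) with 15. The 4 LKO ethanol libraries, at 40.7 to 246 FPKM, lay below every control library, and the WT ethanol libraries, at 218 to 1672 FPKM, overlapped them. Of 21 iron genes tested, 3 rose (Fth1, Ftl1 and Hfe2, which lost its call in 12 of the 16 fits without 1 library) and 1, Hamp, fell with 16 libraries. With 15 libraries 6 rose and 2 fell, among them the iron importer gene Slc11a2 and the iron sensor gene Tfr2 (log2 fold changes 0.59 and -0.53). The level of Mt1 was 472 to 1517 FPKM (median 925) on the control diet and 745 to 12157 FPKM (median 3498) on ethanol. Mt1, a zinc-binding metallothionein, overlapped between diets and rose by 2.01 and 1.76 on the log2 scale, and its neighbour Mt2 did not pass (log2 fold changes 1.69 and 1.49; adjusted p = 0.0771 and 0.0791).

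Plasma proteins of complement and coagulation fell for 6 of 30 with 16 libraries and 14 with 15, and none rose in either fit. The list medians were -0.57 and -0.46 on the log2 scale. C9 ranged from 64.0 to 141 FPKM (median 80.3) in the control libraries and from 12.8 to 63.5 FPKM (median 25) in the ethanol libraries, without overlap. C9, the pore-forming complement protein, fell by 1.61 and 1.43, its partner C8a by 1.43 and 1.24, and F11, a clotting factor, by 1.14 and 0.99 on the log2 scale with 16 and 15 libraries. Of 23 acute phase genes, 1, Saa4, fell with 15 libraries and none with 16, and in both fits 1 rose, Lcn2, an iron-scavenging protein of the acute phase and of neutrophils. Control libraries held Lcn2 at 12.3 to 55.3 FPKM (median 17.0) and ethanol libraries at 30.5 to 1282 FPKM (median 245), and its log2 fold change was 3.29 ± 0.52 (SE; adjusted p = 0.00112) with 16 libraries and 3.24 ± 0.55 (adjusted p = 0.00113) with 15.

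The cytokine and chemokine list, which also holds the receptor gene Cd14, had 16 genes tested. With 16 libraries 2 of them rose, Cd14 and Ccl9 (12.5% called against 7.82% of all genes tested). With 15 libraries 4 rose and 1, Cxcl12, fell (-0.96 on the log2 scale), or 31.2% against 20.2%. Cd14, a co-receptor for bacterial lipopolysaccharide, rose by 2.13 and 2.14 on the log2 scale with 16 and 15 libraries and the chemokine gene Ccl9 by 1.29 and 1.37. The level of Ccl2 was 0.152 to 1.56 FPKM (median 0.390) on the control diet and 0.285 to 29.1 FPKM (median 2.72) on ethanol. Ccl2, which attracts monocytes, was highest in LKO ethanol library 2 and did not pass, with log2 fold changes of 1.41 and 1.39 (adjusted p = 0.106 and 0.0901). Interferon-stimulated genes were called for 1 of 27 with 16 libraries, Oasl1 (lost in 12 of the 16 fits without 1 library). With 15 libraries 3 of them rose. These are 3.7% and 11.1%, against 7.82% and 20.2% of all genes tested. Antigen presentation genes were called for none of 17 with 16 libraries, and 1 fell with 15 (5.9% called). Genes of fibrosis and matrix were called for none of 16 with 16 libraries, while with 15 libraries 3 rose and 1 fell (25% called against 20.2% of all genes tested), among them the basement membrane collagen Col4a1 (log2 fold changes 1.29 and 1.58; adjusted p = 0.0594 and 0.00474).

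Markers of other cells were measured in the same libraries, and in bulk RNA fewer cells of a type and less RNA per cell cannot be told apart. The summed level of 6 neutrophil markers was 1.10 to 6.11 FPKM in the control libraries and 2.58 to 20.4 FPKM in the ethanol libraries. Retnlg and S100a8 rose, S100a9 did not pass, and Mpo, Elane and Ly6g stayed under 1 FPKM. Retnlg was at most 0.616 FPKM in any control library, so only its ethanol libraries could bring it into the test. The call of S100a8 was close to the threshold (limma, adjusted p = 0.04998 with 16 libraries and 0.0473 with 15). The part of neutrophils in the rise of Lcn2 was not tested. B cell markers summed to 3.32 to 7.54 FPKM on the control diet and 0.985 to 2.48 FPKM on ethanol, where Ighm, the only marker of that list tested, fell. None of 12 Kupffer cell and macrophage markers was called, with sums of 214 to 771 FPKM and 157 to 832 FPKM. Of 7 stellate cell markers none was called with 16 libraries and 2 rose with 15. Lyve1 was the only 1 of 7 sinusoidal endothelial markers to rise with 16 libraries, Sox9 the only 1 of 2 tested cholangiocyte markers, and with 15 libraries the endothelial Pecam1 rose as well and the other tested cholangiocyte marker, Spp1, fell. Alas2 fell among 5 erythroid markers. WT ethanol library 2 stood apart in such sums. Stellate cell markers were at 18.1 FPKM in it against 102.5 to 175 FPKM in the other ethanol libraries, and sinusoidal endothelial markers at 15.3 against 44.4 to 106 FPKM. Erythroid markers were at 2160 against 100.3 to 286 FPKM, and cholangiocyte markers at 76.9 against 10.9 to 21.9 FPKM. Adipocyte markers, which bear on Fabp4 and Cidec, summed to at most 0.475 FPKM in any library, with Lep at 0. Of 7 hepatocyte markers Cyp2e1 fell with 16 libraries, and with 15 libraries Ttr fell as well.

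Many of these calls depended on the processing. Calls with 16 libraries that held under every alternative numbered 2 of 5 for ethanol and acetaldehyde metabolism, 4 of 7 for sulfotransferases, 1 of 4 for UDP-glucuronosyltransferases and 5 of 7 for the integrated stress response. They numbered 5 of 9 for immediate early genes, 1 of 3 for p53 and growth arrest genes (Cdkn1a) and 0 of 2 for heat shock genes. For lipids they numbered 4 of 7 in triglyceride synthesis and lipid droplets, 1 of 5 in fatty acid oxidation and 5 of 8 in cholesterol synthesis. Bile acid genes kept 4 of 5, female-biased genes 2 of 5, complement and coagulation genes 4 of 6 and iron genes 1 of 4 (Hamp).

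**Figure D4:**
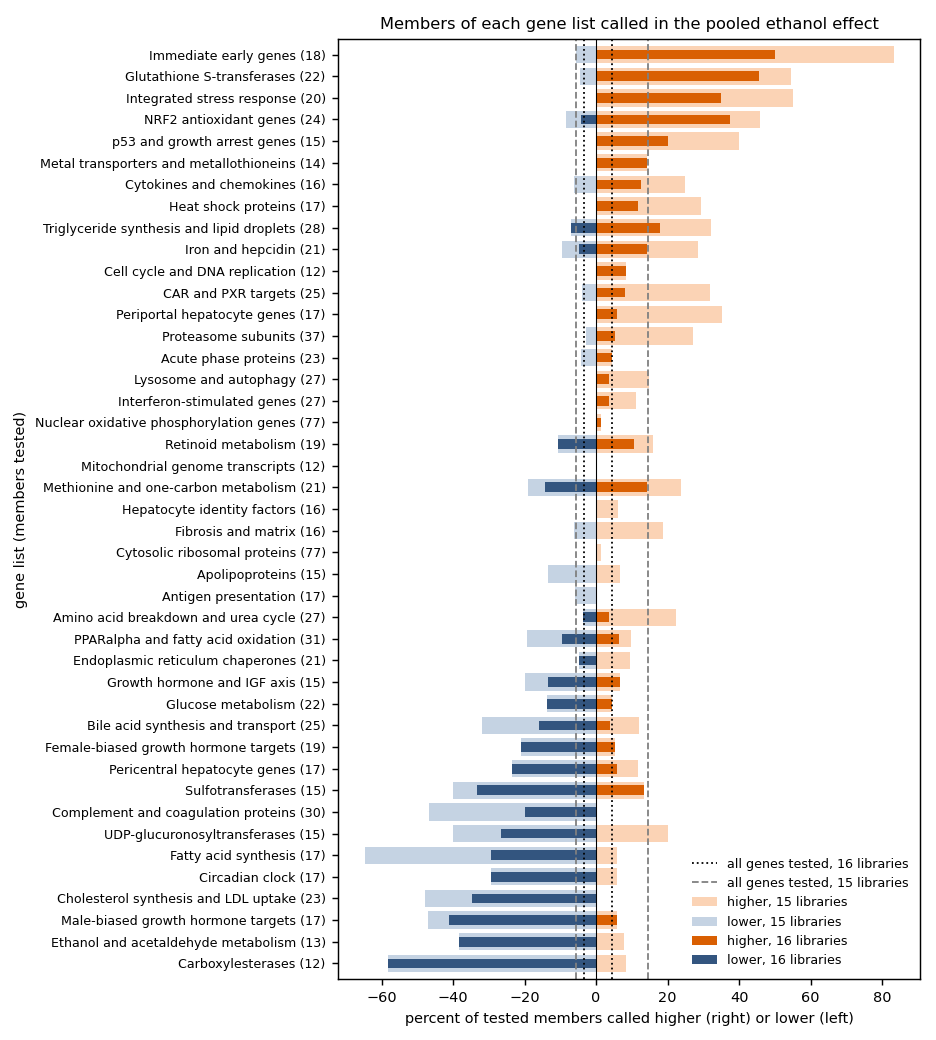
For each of the 43 gene lists (number of tested members in brackets), bars give the percent of members called higher (right, orange) or lower (left, blue) in the pooled fit with 16 libraries (dark) and 15 libraries (pale), with lines at the shares of all genes tested, 4.56% and 3.26% with 16 libraries (dotted) and 14.5% and 5.75% with 15 (dashed). With 16 libraries immediate early genes, glutathione S-transferases and NRF2 target genes extend furthest to the right and carboxylesterases furthest to the left; lists share members.

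The pooled effect averages the 2 genotypes, and each was also fitted by itself. Ethanol against control called 472 genes in WT (4.18%) and 48 in LKO (0.425%) with 16 libraries. Without WT ethanol library 2 it called 1071 in WT (9.48%) and 409 in LKO (3.62%); the LKO libraries were the same, but both genotypes share 1 estimate of the spread. With 16 libraries 477 of the 883 pooled calls were called in neither alone. A test of the difference between genotypes (the interaction) called 0 genes with limma, with 16 libraries and with 15. At an unadjusted p under 0.05 that test picked 362 genes (3.20%) and 499 genes (4.42%), and the smallest adjusted p was 0.812 and 0.578; this does not show that the genotypes responded alike. All 883 called genes had the same sign in both genotypes, a property that the pooled test favours, against 63.6% of all genes tested. The change was larger in WT for 647 of the 883 (73.3%), with a median absolute log2 fold change of 1.03 in WT and 0.78 in LKO, and with 15 libraries for 1549 of 2284 (67.8%), with medians of 0.70 and 0.56. The same share over all genes tested was not computed. The WT change includes WT ethanol library 2 or, without it, rests on fewer libraries than that of LKO. A stronger response in WT can therefore not be read from these shares.

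Cyp2b10 had log2 fold changes of 7.2 in WT (without library 2) and 6.75 in LKO. Those of the cell cycle inhibitor gene Cdkn1a were 3.36 and 3.19, and those of Adh4 were -2.04 and -1.96. Gsta1 differed most among the rises shown, with log2 fold changes of 5.85 in WT and 3.23 in LKO (interaction adjusted p = 0.968), and Lcn2 had 4.25 and 2.37. Hamp was the reverse, with -0.35 in WT and -4.16 in LKO, and its interaction was among 3 genes with the smallest adjusted p of the 15-library fit, 0.578. Slco1a1 (-2.09 and -3.77) and the clock output gene Dbp (-0.89 and -3.31) also had more negative log2 fold changes in LKO. None of these differences passed the interaction test.

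**Figure D5:**
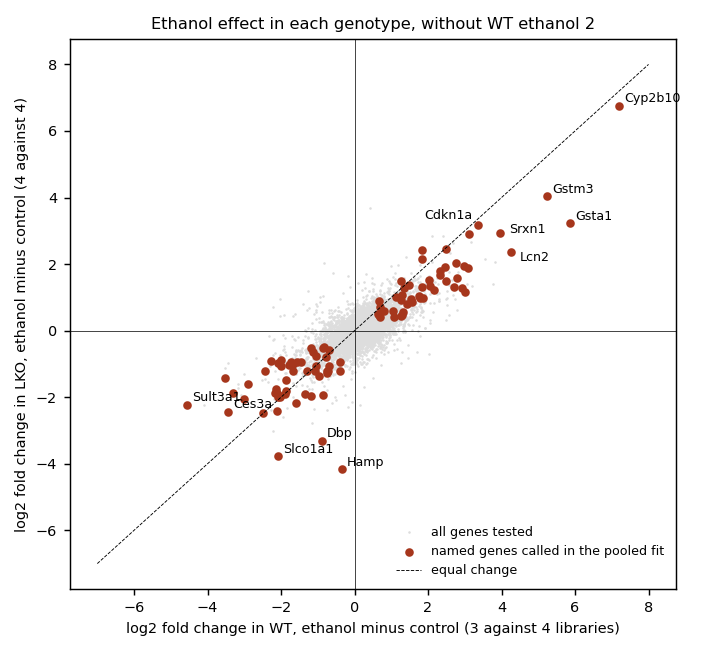
Log2 fold change (ethanol minus control, FPKM + 1) in WT without library 2 (x axis, 3 against 4 libraries) and in LKO (y axis, 4 against 4) for all genes tested (grey) and for the 100 named genes called in the pooled fit (red). Red points share a sign in both genotypes; Hamp, Slco1a1 and Dbp lie below the dashed line of equal change and Gsta1 lies to its right.

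Within each group, libraries 1 and 2 differed from libraries 3 and 4 along the first component of within-group variance, which held 40% of it. The labels name no batch, and the numbers follow the order of the records. Both diets have libraries on each side, so the effect was also fitted within sides. Libraries 1 and 2 called 59 genes, or 1508 without WT ethanol library 2, and libraries 3 and 4 called 716. All 883 pooled calls kept their direction in each of these fits, a property that the pooled test favours. Over all genes tested 75.6% had the same sign in both sides without WT ethanol library 2. Cyp2b10 rose by 7.24 and 6.78 and Gstm3 by 4.10 and 4.99 on the log2 scale in the 2 sides (the first without WT ethanol library 2).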

How the data were processed

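The authors deposited 1 table of FPKM values, with 16 library columns and 35275 rows named by Ensembl gene IDs; 10898 rows were at 0 throughout. Per the submitters' processing notes, fastp, STAR 2.6.1, HTSeq and DESeq2 were used on build mm10; their order, the annotation and the strand setting are not given in the sources used here. Symbols and positions came from GENCODE M21 (GRCm38), for 34490 IDs. Genes at 1 FPKM or more in at least 4 libraries were kept. Values were tested as log2(FPKM + 1), which understates the change of low genes, with limma 3.58.1 in R 4.3.3, with diet and genotype as terms, eBayes with trend and Benjamini-Hochberg adjustment over 11298 genes, two-sided. Genotypes came from the labels, and library numbers follow the order of the records. Within a gene the FPKM values were whole multiples of 1 read (within 0.02 reads) in 100% of the 20520 rows that were above 0 in 4 or more libraries, which gave reads and totals. Counting error was not modelled outside voom. Code was tested on simulated data.

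Genes were named as Zfp36l1 and Fgf21, the 12 largest rises and 12 largest falls among genes called with 16 and 15 libraries without overlap between diets (passing over predicted genes, Rik clones, pseudogenes and IDs without symbol), at most 3 members per list with the smallest adjusted p, and genes that define a pathway. The comparison, its members and the 43 gene lists were chosen with earlier results of these data known. Lists share members. Alternatives were another pseudocount (0.1), no filter, 3 scalings, array weights, 4 group means, no trend, a term for the 2 sides of the within-group split and each library left out, plus voom on the recovered reads, added after the data were seen. Some genes are not reported here.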

Additional observations from a re-analysis of the deposited data

Results flagged for a closer look

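Over 284 sets of 8 libraries (each named gene and library measure within a diet), 30 had 1 library far from the other 7. Far means a gap to its nearest neighbour above 0.526 of the whole range (Dixon's 95% critical value for 8). Gap and range were taken on log2(FPKM + 1) for genes and on the measure itself for library measures. The gene values below are in FPKM. By chance about 1 in 20 is found. WT ethanol library 2 accounts for 18 of the 30. It held 9890475 reads against 19459817 to 24768569 in the other ethanol libraries, a sum of FPKM of 816466 against 498052 to 555642, and mitochondrial transcripts at 22.53% of reads against 3.64% to 6.97%.

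In that library several genes that fell were lower than in the other 7 ethanol libraries. Abca8a was at 0.144 FPKM (others 2.84 to 9.06), Cyp2c23 at 5.61 FPKM (26.2 to 64.9) and Gulo at 44.7 FPKM (131 to 211). Adh5, at 54.5 FPKM (133 to 227), Pklr, at 0.871 FPKM (20.6 to 175), and Gys2, at 11.5 FPKM (45.1 to 92.5), were also low there. Among genes not called with 16 libraries, Pdia4 was at 12.9 FPKM (42.9 to 68.1), Cxcl12 at 0.970 FPKM (19.9 to 64.9), Nr5a2 at 1.23 FPKM (5.84 to 12.8) and the respiratory subunit gene Sdha at 54.6 FPKM (106 to 156). Other genes were high in it. Sdsl was at 85.1 FPKM (12.1 to 30.3), Foxa3 at 142 FPKM (37.8 to 60.4) and Rpl38 at 1446 FPKM (177 to 426). The mitochondrial transcript mt-Nd3 was at 114 FPKM (17.6 to 41.1) and Atp5g1 at 125 FPKM (44.9 to 59.3). With 15 libraries the log2 fold changes of Abca8a, Cyp2c23, Gulo and Sdsl were -1.98, -1.65, -0.90 and 1.19, and all 4 kept their call.

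Among control libraries, WT control library 3 held Cdkn1a at 24.5 FPKM (0.806 to 4.09 in the other 7) and Acot2 at 21.1 FPKM (2.53 to 6.30), both genes that rose on ethanol. The same library was low in Gys2, at 53.5 FPKM (100.1 to 136), and Dbp, at 3.51 FPKM (23.4 to 58.6), both genes that fell. WT control library 1 was high in Cyp7a1, at 144 FPKM (51.9 to 76.9), and Ifi47, at 17.2 FPKM (7.5 to 10.5), and low in the zinc importer Slc39a4, at 11.5 FPKM (18.3 to 24.0). LKO control library 4 was high in Ces3a, at 1032 FPKM (394 to 564), and Mup21, at 56.5 FPKM (5.10 to 16.2), and low in Sult3a1, at 1.56 FPKM (34.9 to 142). WT control library 4 was low in Nnmt, at 71.2 FPKM (119 to 179), and WT ethanol library 1 was high in Gadd45b, at 40.7 FPKM (3.92 to 11.1).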

How the results depend on the processing

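The number of genes called for ethanol against control was 883 with 16 libraries. It was 1414 with quantile normalization, 524 with equal sums of FPKM, 2439 with array weights (where WT ethanol library 2 had a weight of 0.05) and 1359 with a term for the 2 sides of the within-group split. Without WT ethanol library 2 it was 2284, and further 3555 with the side term, 2209 with quantile normalization and 2280 with voom on recovered reads; the cause was not tested. The other settings stayed within 1.5 times: 626 without the filter, 811 with a pseudocount of 0.1, 1281 with median-of-ratios scaling, 879 with group means, 866 without trend and 817 with voom. Leaving out 1 library at a time gave 532 to 2284, and it was more than 1.5 times below 883 without WT control library 1 (569), WT control library 4 (547) or LKO ethanol library 2 (532). The share of calls that were higher was 58.3%, and 50.2% with quantile normalization, 43.2% with median-of-ratios scaling, 72.4% with array weights and 71.5% without WT ethanol library 2. The interaction called 0 genes with 16 and 15 libraries. Of 139 named genes 100 were called, 65 of them under all 13 other alternatives and all 16 fits without 1 library, and none of the 100 changed sign. The uncalled Zfp36l1 changed sign under quantile normalization without WT ethanol library 2 (-0.0072 on the log2 scale) and without WT control library 2 or WT ethanol library 4 (-0.0090 and -0.011); leaving out 1 library gave it -0.011 to 0.20. No paired analysis was possible because the labels give no replicate numbers shared between groups; each title carries a number of its own, some of them consecutive across diets, and the labels do not say what these stand for.

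In WT ethanol library 2 fewer reads limit low genes; with 8 libraries against 8, a p that misses the threshold does not show that a gene did not differ.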

Other observations

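Clock genes fell for 5 of 17 with 16 libraries and none rose, among them the output factors Dbp (log2 fold changes -2.43 and -2.19 with 16 and 15 libraries) and Tef (-1.07 and -0.89), and with 15 libraries the core gene Clock rose by 0.75 while Per3 fell by 1.15 on the same scale. None of the 5 calls held under every alternative, and the labels give no time of collection. Pericentral genes fell for 4 of 17 and rose for 1, Car14 (lost in 13 of the 16 fits without 1 library), with 16 libraries, and 4 fell and 2 rose with 15. Those that fell included Rgn, a calcium-binding lactonase (630.1 to 1247 FPKM (median 992) on the control diet and 35.9 to 766 FPKM (median 337) on ethanol), and Gulo, the last enzyme of vitamin C synthesis, without overlap (log2 fold changes -1.12 and -0.90). Periportal genes were called for 1 of 17 with 16 libraries, and for 6, all higher, with 15, where Cps1 of the urea cycle rose by 0.84 on the log2 scale. These are 5.9% and 35.3%, against 7.82% and 20.2% of all genes tested. In retinoid metabolism Rdh7 and Dhrs3, which interconvert retinol and retinal, fell by 0.65 and 1.07 with 16 libraries while Bco1 rose, and Rdh7 did not overlap between diets. Among glucose genes Pklr, the liver pyruvate kinase, fell (log2 fold changes -2.03 and -1.50), a call lost in 5 of the 16 fits without 1 library and 3 of the 13 other settings.

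One-carbon genes went both ways, with 3 of 21 higher and 3 lower with 16 libraries, and 5 higher and 4 lower with 15, and none of the 6 calls held under every alternative. Nnmt, which methylates nicotinamide, rose without overlap (log2 fold changes 1.36 and 1.06), a call lost without WT control library 4 (adjusted p = 0.0573) and in 2 of the 13 other settings. Sdsl, a serine dehydratase-like enzyme, rose by 1.43 and 1.19 on the log2 scale without overlap, and Mcm2, a DNA replication helicase gene, by 0.78 and 0.82, the only 1 of 12 cell cycle genes called in either fit (8.3%, against 7.82% and 20.2% of all genes tested). Proteasome subunits were called higher for 2 of 37 with 16 libraries and 10 with 15, where 1 was lower; in all, 5.4% and 29.7% were called, against 7.82% and 20.2% of all genes tested. Psmd8 had log2 fold changes of 1.0 and 1.09, and its call was lost in 7 of the 16 fits without 1 library and 2 of the 13 other settings. Lysosome and autophagy genes were called for 1 of 27 with 16 libraries and 4 with 15 (3.7% and 14.8%, below the shares of all genes tested). The autophagy receptor gene Sqstm1 passed with 15 libraries only (log2 fold changes 0.98 and 1.27, adjusted p = 0.0953 and 0.00210). Ribosomal proteins (0 of 77), transcripts of the mitochondrial genome (0 of 12) and hepatocyte identity factors (0 of 16) had no calls with 16 libraries, and nuclear oxidative phosphorylation genes had 1 of 77.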
